A study of Mus musculus with 8 samples.

Results

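Transcription factors decide which genes a hepatocyte expresses, and 8 genes that encode such factors are described here, with every peak of 5-hydroxymethylcytosine (5hmC) found near them in 6 libraries. They are Hnf4a, Onecut1, Prox1, Cebpa, Cebpb, Nr1h4, Nr1i2 and Nr1i3, chosen by name among 22367 protein-coding genes of the mouse mm9 annotation, and all 8 were found. A peak was taken where it overlapped the gene or the 10 kb on either side of it. The 6 libraries, 1 each, came from the E14 line of embryonic stem cells (ESCs), primary fibroblasts of C57BL/6 embryos (MEFs), adult brain and adult liver of C57BL/6 mice 8 weeks old, and E14 ESCs transfected with a short hairpin against GFP (shGFP) or against Suz12 (shSuz12), a core subunit of Polycomb repressive complex 2. The label of the MEFs gives embryonic day 11, and the study's methods give a later day. The hairpin cells were selected with puromycin, which of the Suz12 hairpins was used is not named, and Suz12 itself cannot be measured in a list of 5hmC peaks. Whole liver and whole brain hold several cell types, so a peak carried by few cells and a weak peak carried by all cannot be told apart.

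Hepatocyte identity depends on a network of factors that bind and activate each other's genes. Hnf4a, a nuclear receptor, is a central member, and it is joined by the homeodomain factors Onecut1 (also called HNF6) and Prox1 and by the leucine zipper factors Cebpa and Cebpb. Nr1h4 (FXR), Nr1i2 (PXR) and Nr1i3 (CAR) are nuclear receptors for bile acids and foreign compounds that such factors help to keep on in the liver. 5hmC is made from methylated cytosine by the TET enzymes, mostly where a C is followed by a G (CpG), and is known to be abundant along genes that a tissue expresses.

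In GLIB-Seq a glucose is placed on each 5hmC, opened with periodate and coupled to biotin, so that fragments with 5hmC are pulled down and sequenced. Each deposited peak has a position and a score from MACS, a peak caller, taken here as a multiple of the negative log10 of its p-value. The lists held between 130408 and 217025 nuclear peaks, and their read depth is unknown. The lowest score was 80 for the ESC and liver lists, 30 for the MEF and brain lists, 50.02 for shGFP and 30.3 for shSuz12. ESCs and liver are therefore the pair that can be set side by side most directly, and scores are not compared between lists as levels. With 1 library per condition there was no spread between replicates and no test, and the values that follow describe these libraries.

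The sequences under the strongest liver peaks and before transcript starts are shown first, because CpG is where 5hmC can lie and the genes differ widely in it. In each, the capitals mark CpG, and the strand is that of the gene. For the 5 genes with the highest liver peaks, the 150 bases with most CpG outside exons were read from the mm9 genome. They lie at chr2:163360783-163360932 (plus strand, 28239 to 28388 bp from the outer transcription start site, TSS, of Hnf4a), chr9:74701550-74701699 (plus strand, -8178 to -8029 bp, Onecut1), chr1:191967623-191967772 (minus strand, 26787 to 26936 bp, Prox1), chr1:173147051-173147200 (plus strand, 2950 to 3099 bp, Nr1i3) and chr10:88955354-88955503 (minus strand, 40827 to 40976 bp, Nr1h4), and hold 11, 10, 6, 6 and 6 CpG.
Hnf4a, highest liver peak: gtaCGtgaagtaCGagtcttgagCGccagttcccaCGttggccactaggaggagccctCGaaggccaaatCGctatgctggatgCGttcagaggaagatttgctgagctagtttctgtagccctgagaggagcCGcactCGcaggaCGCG
Onecut1, highest liver peak: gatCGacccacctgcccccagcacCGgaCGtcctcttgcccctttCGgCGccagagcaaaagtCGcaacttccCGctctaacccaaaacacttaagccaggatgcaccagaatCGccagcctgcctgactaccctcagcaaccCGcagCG
Prox1, highest liver peak: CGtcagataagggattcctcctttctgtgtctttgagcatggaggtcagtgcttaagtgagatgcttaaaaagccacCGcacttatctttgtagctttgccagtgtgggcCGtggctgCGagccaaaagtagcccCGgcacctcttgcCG
Nr1i3, highest liver peak: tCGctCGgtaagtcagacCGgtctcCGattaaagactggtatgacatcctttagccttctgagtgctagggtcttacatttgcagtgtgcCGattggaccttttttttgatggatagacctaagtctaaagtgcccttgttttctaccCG
Nr1h4, highest liver peak: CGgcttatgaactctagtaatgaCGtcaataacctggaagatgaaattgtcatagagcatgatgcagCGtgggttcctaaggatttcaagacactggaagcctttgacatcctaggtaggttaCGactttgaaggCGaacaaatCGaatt

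The 150 bases just before a start show both kinds of promoter in this family. Those of Cebpb (chr2:167514265-167514414, plus strand) hold 26 CpG and those of Cebpa (chr7:35904162-35904311, plus strand) 12. Those of Nr1i2 (chr16:38294911-38295060, minus strand) hold 2 and those before the start of Hnf4a at 40380 bp (chr2:163372774-163372923, plus strand) 3.
Cebpb, before the start: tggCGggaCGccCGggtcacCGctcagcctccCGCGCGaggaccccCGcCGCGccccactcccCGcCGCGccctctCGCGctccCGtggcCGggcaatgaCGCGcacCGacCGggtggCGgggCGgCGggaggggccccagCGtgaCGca
Cebpa, before the start: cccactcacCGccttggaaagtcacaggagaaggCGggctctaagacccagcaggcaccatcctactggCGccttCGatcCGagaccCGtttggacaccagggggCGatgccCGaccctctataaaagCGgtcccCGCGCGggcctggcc
Nr1i2, before the start: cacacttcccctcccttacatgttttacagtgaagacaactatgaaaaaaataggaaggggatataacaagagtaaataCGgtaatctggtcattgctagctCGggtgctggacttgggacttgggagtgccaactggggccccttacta
Hnf4a, before the start at 40380 bp: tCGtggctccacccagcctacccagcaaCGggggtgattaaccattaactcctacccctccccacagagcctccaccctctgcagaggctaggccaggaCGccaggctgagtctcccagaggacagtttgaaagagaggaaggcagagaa

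Over the 8 genes and their flanks there were 81 peaks in ESCs, 67 in MEFs, 44 in brain, 129 in liver, 65 in shGFP and 62 in shSuz12, and each gene had at least 1 peak in every library. Most protein-coding genes with such flanks also held a peak, their share per list lying between 68.0% (liver) and 77.6% (ESCs). The liver peaks covered 232950 bp, or 53.0% of the bp of the regions of the 8 genes, against 18.5% in ESCs, 14.1% in MEFs, 11.7% in brain, 13.4% in shGFP and 7.98% in shSuz12. The median gene of the 8 was covered to 50.6% in liver, where the median of all protein-coding genes with the same flanks was 7.68%. In the other libraries the 8 also had a higher median than all genes, by less: 19.7 against 9.89% in ESCs, 15.7 against 6.42% in MEFs, 10.9 against 8.25% in brain, 13.9 against 5.96% in shGFP and 9.75 against 4.33% in shSuz12. The liver share ran from 23.7% in Cebpa to 65.1% in Onecut1.

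**Figure D1:**
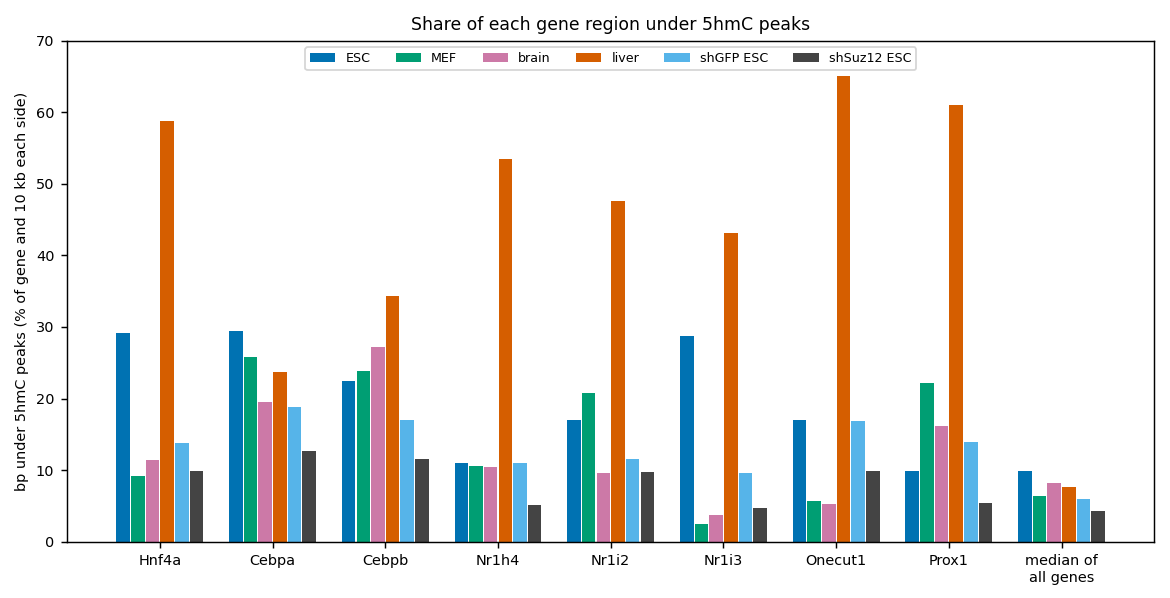
Bars give the share of bp under 5hmC peaks within each gene and 10 kb on each side (y axis, percent), for each of the 8 genes and for the median of all protein-coding genes (x axis), coloured by library, with 1 library per bar and no error bars. The liver bar is the highest for every gene but Cebpa, where ESCs reach 29.5% and liver 23.7%.

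The liver peaks of these genes were wide, with a median of 1561 bp against 1016 bp over the whole liver list, whereas the medians of the ESC peaks, 841 and 844 bp, were close. Their median score in liver was 287 against 162 for the list. In ESCs it was 174 against 178, in MEFs 60.0 against 58.2, in brain 56.5 against 49.8, in shGFP 97.6 against 87.2 and in shSuz12 49.1 against 53.1. The liver peaks thus stood above their own list in score and width, and the ESC peaks did not. Of the 129 liver peaks, 25 overlapped an exon, 60 lay in introns alone and 44 in the flanks, 20 of these in a neighbouring gene. No liver peak covered an outer TSS of the 8 genes, and over all protein-coding genes 5.38% had theirs covered in liver.

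**Figure D2:**
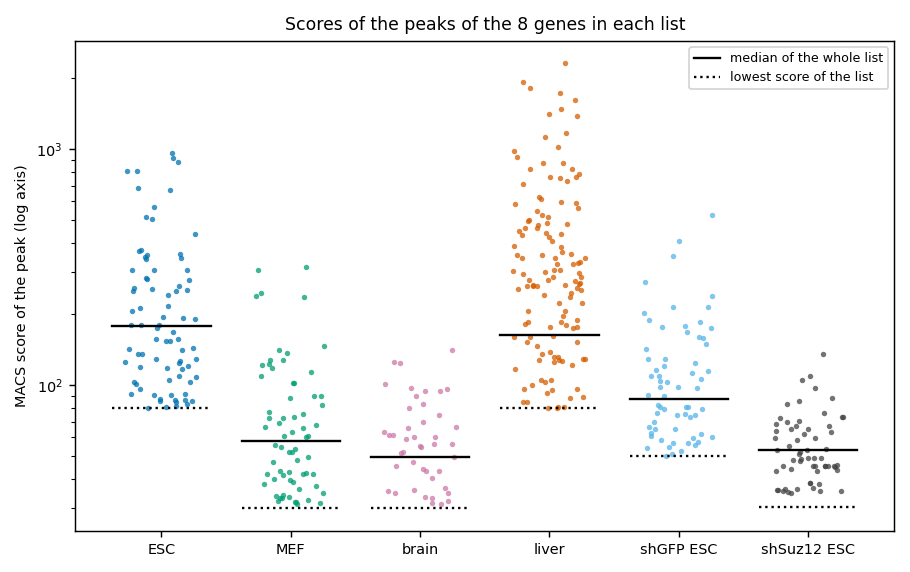
Each point is a peak of the 8 genes, placed by library (x axis) and by its MACS score (y axis, log scale). The solid lines mark the median score of each whole list and the dotted lines its lowest score. Liver points reach 2313 and most lie above the median line of their list.

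Hnf4a (ENSMUSG00000017950, chr2:163332544-163398646, plus strand, mm9) is the nuclear receptor at the centre of the network. It is known to use a promoter upstream, P2, and another downstream, P1, the main one in adult liver. The annotation gives it 7 transcripts, with an outer start and inner coding starts at 30211, 40380 and 43275 bp, and it has an antisense transcript, 0610008F07Rik, over its 5' part and upstream flank. The protein-coding gene R3hdml also reaches into the upstream flank, with 5805 bp. Each upstream liver peak overlaps R3hdml at least in part, so these peaks cannot be assigned to Hnf4a alone. Liver peaks covered 50650 bp of its region, or 58.8%, more than in 97.2% of protein-coding genes. ESC peaks covered 25103 bp, MEF peaks 7959 bp, brain peaks 9815 bp, shGFP peaks 11924 bp and shSuz12 peaks 8491 bp.

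Upstream of Hnf4a, liver showed peaks at -11807 to -9627, -9303 to -6353, -6130 to -5373 and -4508 to -189 bp (scores 515, 584, 95.7 and 1610.3). The peak nearest the outer TSS left 188 bp free before it, and it was among the highest of the gene. ESC peaks over the same flank were at -7321 to -6571, -6215 to -5405, -4326 to -3457 and -3391 to -2567 bp (scores 195, 156, 217 and 109), and 1 lay over the outer TSS itself at -451 to 681 bp (score 438). In shGFP the flank held peaks at -6755 to -6053 and -4300 to -3535 bp (scores 56.7 and 104), and the TSS was again covered, by a peak at -497 to 464 bp (score 109). In shSuz12 the flank showed peaks at -7278 to -6500 and -5735 to -5382 bp (scores 59.5 and 45.3), and no peak covered the TSS. MEFs and brain had no peak upstream.

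The long first introns of Hnf4a, between the outer TSS and the start at 30211 bp, held the strongest liver signal. The antisense transcript 0610008F07Rik spans this stretch too, so peaks in it cannot be assigned to Hnf4a alone. Liver peaks there lay at 2625 to 9678, 10065 to 12304 and 18689 to 20224 bp (scores 1729, 309 and 527). Further in were those at 20591 to 22382, 22452 to 28495 and 28668 to 30459 bp (scores 629, 2313 and 447), the second of which had the highest score of all peaks of the 8 genes. The last of them covers the start at 30211 bp, the only inner or outer coding start of these genes that a liver peak covers. ESC peaks in this stretch were at 3034 to 4467, 5582 to 8633, 8775 to 9462 and 10481 to 11548 bp (scores 342, 966, 81.6 and 285), then at 19063 to 19876, 20786 to 21523, 24884 to 26289 and 26294 to 27012 bp (scores 125, 108, 356 and 80.3), and at 27429 to 28238 and 28297 to 29582 bp (scores 103 and 241). The peak at 5582 to 8633 bp was the strongest ESC peak of the 8 genes and lay under the liver peak that starts at 2625 bp.

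The other libraries had peaks in the same stretch. In MEFs they were at 3132 to 3676, 5695 to 6394 and 28449 to 29566 bp (scores 31.4, 75.2 and 65.7), and in brain at 3057 to 3805, 7279 to 8603 and 25260 to 26846 bp (scores 35.01, 66.2 and 125). In shGFP they were at 2967 to 3629, 5400 to 6386 and 6444 to 6965 bp (scores 73.2, 142 and 98.01), at 7599 to 8695, 8957 to 9635 and 9838 to 10485 bp (scores 129, 58.7 and 74.8), and at 23223 to 23866 and 27932 to 28972 bp (scores 75.2 and 115). In shSuz12 they were at 2771 to 3372, 5909 to 6337 and 7481 to 8146 bp (scores 43.1, 53.5 and 48.4), and at 8738 to 9676, 10684 to 10982 and 27259 to 28154 bp (scores 85.7, 65.4 and 70.4). Every library thus had a peak near 3 kb, where the first of the intronic peaks begins.

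Around the start at 40380 bp the picture was the reverse. ESCs had a strong peak across it at 39637 to 41383 bp (score 807), shSuz12 had 1 at 39919 to 40677 bp (score 88.2), and MEFs had 1 just past it at 40596 to 41351 bp (score 123). Liver had no peak from its peak at 35224 to 37999 bp (score 764) to the next, at 44517 to 45270 bp (score 96.5), a stretch of 6517 bp. This stretch includes the start at 43275 bp, which a MEF peak alone covers, at 42847 to 43882 bp (score 87.95). Brain and shGFP had no peak in the stretch either. Between the start at 30211 bp and this stretch, ESCs showed peaks at 30605 to 31446 and 31962 to 33468 bp (scores 180.1 and 344), MEFs at 32409 to 33373 and 36948 to 37580 bp (scores 63.5 and 31.9), and brain at 31873 to 33538 and 36991 to 37710 bp (scores 83.5 and 32.1). The shGFP peaks were at 30642 to 31377 and 36957 to 37350 bp (scores 59.9 and 78.8), and the shSuz12 peak at 32721 to 33147 bp (score 44.1).

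In the 3' part of Hnf4a, with most of the coding exons, liver peaks followed each other closely, at 45687 to 46323, 49867 to 51600 and 52901 to 54719 bp (scores 89.1, 295 and 347), and at 55208 to 58686, 59089 to 60304, 60666 to 62067 and 62686 to 65225 bp (scores 561, 354, 262 and 615). Past the gene they were at 66299 to 67747, 69500 to 70870 and 72659 to 73291 bp (scores 385, 462 and 80.1), and, up to the edge of the region, at 74068 to 75949 and 76006 to 77101 bp (scores 598 and 207). ESC peaks were fewer, at 45620 to 46068, 48357 to 49148 and 55345 to 55952 bp (scores 84.7, 254 and 205), and at 64231 to 65138, 65475 to 66252 and 68207 to 69273 bp (scores 168, 144 and 212). MEF peaks lay at 48532 to 49275, 54456 to 55067 and 68217 to 69066 bp (scores 38.2, 33.6 and 102), and brain peaks at 55005 to 56035, 56151 to 57074 and 73577 to 75389 bp (scores 35.7, 43.3 and 45.3). In shGFP they were at 45630 to 46266, 65522 to 66246 and 68330 to 69049 bp (scores 50.1, 60.9 and 80.8), and in shSuz12 at 48663 to 49065, 56294 to 56900, 63321 to 63575, 64486 to 64987 and 73280 to 73853 bp (scores 45.3, 70.02, 76.2, 48.7 and 36.2). The liver list thus marked this part most densely.

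Onecut1 (ENSMUSG00000043013, chr9:74709728-74737591, plus strand), a factor that acts in liver and pancreas development, had the largest liver share of the 8 genes. Liver peaks covered 31144 bp, or 65.1%, while ESC peaks covered 8126 bp, MEF peaks 2746 bp, brain peaks 2494 bp, shGFP peaks 8103 bp and shSuz12 peaks 4697 bp. A non-coding transcript of the gene starts at 4563 bp, and another annotated RNA, Gm16551, spans the gene on the same strand, so a peak here cannot be assigned to Onecut1 alone. Upstream, liver showed peaks at -12199 to -5730, -5578 to -2625 and -1672 to -430 bp (scores 1923, 712 and 359), so that most of the flank was covered, with 429 bp left free before the TSS. ESC peaks in it were at -8218 to -7037 and -4471 to -3570 bp (scores 308 and 135), shGFP peaks at -8210 to -6751, -6332 to -3678 and -1615 to -817 bp (scores 215, 409 and 79.4), and shSuz12 peaks at -7869 to -7219 and -5149 to -3930 bp (scores 67.04 and 105). Brain had 1 peak at -1636 to -1052 bp (score 31.5), and MEFs none.

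From the TSS to 8461 bp, liver had no peak, and the 3 ESC libraries did. ESCs had them at 2326 to 3232, 4048 to 5678 and 6684 to 7217 bp (scores 189.8, 669 and 105), shGFP at 2301 to 3044, 3951 to 5052 and 6671 to 7372 bp (scores 65.4, 149.6 and 62.9), and shSuz12 at 2650 to 3253, 4668 to 5227 and 6767 to 7121 bp (scores 34.9, 45.3 and 136). The same 3 places were marked in each of these libraries, and the one in the middle is at or just past the non-coding start. MEFs had no peak there, and a brain peak at 8241 to 9227 bp (score 54.8) began before the first liver peak in the gene. Liver peaks then lay along the intron, at 8462 to 9459, 9681 to 10601, 10952 to 11761 and 11852 to 13219 bp (scores 129, 105, 105 and 176), and at 16335 to 18119, 18224 to 20527, 20632 to 21856, 22139 to 24052 and 24143 to 26646 bp (scores 327, 483, 254, 278 and 589). The peak over the last exon and beyond was at 26936 to 32263 bp (score 1405), and those past the gene at 32799 to 33850, 34089 to 34889 and 35100 to 36765 bp (scores 184, 88.3 and 222). The coding part of the last exon was marked in ESCs too, at 27081 to 27850 bp (score 140.3), in MEFs at 27068 to 27971 bp (score 122), and in brain at 27056 to 27977 bp (score 34.96), but not in shGFP or shSuz12. The remaining ESC peaks were at 8474 to 9313 and 18612 to 19311 bp (scores 129 and 116), and at 36091 to 36750 bp (score 142). The remaining MEF peaks were at 14249 to 14762 bp (score 48.2), and at 36034 to 37361 bp (score 136). In shGFP 1 further peak was at 32994 to 33634 bp (score 82.5), and in shSuz12 others were at 10038 to 10553, 14402 to 14740 and 33075 to 33526 bp (scores 47.8, 65.4 and 51.9).

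Prox1 (ENSMUSG00000010175, chr1:191945660-191994559, minus strand) is a homeobox gene of hepatocytes that is also known for its part in lymphatic vessels and in some neurons. Liver peaks covered 42029 bp, or 61.0%. Among the other libraries MEFs came next with 15236 bp, then brain with 11097 bp, shGFP with 9630 bp, ESCs with 6832 bp and shSuz12 with 3748 bp. Prox1 was the gene with the largest ratio of liver to ESCs, at 6.15. A lincRNA, Gm17566, starts inside the gene near its TSS, on the other strand, and runs upstream. The upstream flank held 1 liver peak, at -12156 to -6945 bp (score 1164), 1 in MEFs at -9373 to -8800 bp (score 41.5), and 1 in brain at -10976 to -9684 bp (score 90.2). In shGFP there were 3 peaks nearer the TSS, at -4384 to -3671, -3334 to -2633 and -2584 to -1624 bp (scores 55.8, 89.7 and 109), which overlapped no peak of the other lists.

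Within Prox1, no library had a peak over the TSS. The first liver peaks were at 4537 to 5696, 8198 to 10244, 10431 to 11672 and 12233 to 13914 bp (scores 162, 822, 262 and 346), and the following at 15631 to 18330, 19571 to 22692 and 22812 to 24013 bp (scores 981, 868 and 189). In the middle of the gene were those at 25347 to 31200, 31219 to 35179, 35512 to 36298 and 37353 to 38526 bp (scores 1820.0, 923, 136 and 262), and further those at 39861 to 40745, 41346 to 42460, 42555 to 44182 and 46343 to 48150 bp (scores 92.5, 242, 287 and 431). The end of the gene and its downstream flank had liver peaks at 48374 to 49383, 49450 to 51112 and 51164 to 52218 bp (scores 222, 357 and 252), and at 52255 to 54366, 54624 to 55620 and 55957 to 57725 bp (scores 547, 180.2 and 304). Liver peaks thus recurred from 4537 bp to the edge of the region, with the highest score in the intron near 28 kb.

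ESC peaks of Prox1 were at 8793 to 10125, 16976 to 17524, 20487 to 22545 and 27333 to 28538 bp (scores 506, 91.5, 369.6 and 179), and at 45035 to 45848 and 46657 to 47527 bp (scores 253 and 258). Those of MEFs were at 8337 to 9998, 20122 to 22638, 27256 to 28048 and 28079 to 28767 bp (scores 315, 245, 41.9 and 51.99), at 32263 to 33571, 37074 to 38350, 40376 to 41546 and 41655 to 42835 bp (scores 60.9, 41.8, 69.1 and 76.7), and at 44895 to 45939, 46478 to 47946, 48002 to 48768 and 51090 to 51871 bp (scores 82.2, 118, 66.7 and 55.7). Those of brain were at 8543 to 10076, 12528 to 13406, 22239 to 23024 and 25904 to 27506 bp (scores 96.3, 33.5, 49.8 and 63.5), at 37055 to 38401, 40305 to 41933 and 43436 to 44145 bp (scores 79.7, 94.3 and 56.5), and at 46580 to 48103 and 51255 to 52022 bp (scores 94.2 and 33.1). In all 6 libraries a peak lay over the coding exon near 9 kb. In shGFP it was among the peaks at 4740 to 5214, 8885 to 10116, 21161 to 22610 and 31550 to 32209 bp (scores 66.2, 185, 201 and 54.2), which were followed by those at 40723 to 41295, 41463 to 42485, 44813 to 45688 and 46669 to 47632 bp (scores 175, 159.6, 54.8 and 116). In shSuz12 it was the highest of the peaks at 4886 to 5448, 9096 to 10148, 20770 to 21266 and 27664 to 28211 bp (scores 36.7, 96.8, 48.97 and 45.98), beside those at 32445 to 33036 and 45150 to 45644 bp (scores 35.4 and 68.5).

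Cebpa (ENSMUSG00000034957, chr7:35904312-35906945, plus strand), an intronless gene whose product drives the metabolic genes of hepatocytes and fat cells, did not follow this pattern. It was covered most in ESCs, by 6667 bp or 29.5%, then by 5854 bp in MEFs, 5372 bp in liver, 4405 bp in brain, 4271 bp in shGFP and 2859 bp in shSuz12. Its liver share of 23.7% was above that of 72.2% of all genes. The liver peaks, at -8143 to -6773 and -6476 to -5379 bp (scores 175 and 195), and at 6362 to 7642, 10124 to 10957 and 11846 to 13906 bp (scores 287, 126 and 435), all lay in the flanks. They left 11740 bp without a peak around the TSS, the gene included.

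In ESCs the flanks of Cebpa showed peaks at -7981 to -6736 and -2639 to -1807 bp (scores 180.0 and 136), and at 2853 to 3462, 3471 to 4826, 9496 to 10379 and 10539 to 11335 bp (scores 118, 308, 174 and 87.6). Within the gene ESCs had a peak at 1604 to 2544 bp (score 192), at the 3' untranslated end. In shGFP the gene showed peaks at 1037 to 1665 and 1788 to 2696 bp (scores 106 and 69.5), with others around it at -7982 to -7369, -7350 to -6711 and -6574 to -5792 bp (scores 64.9, 112 and 80.97), and at 3496 to 4191 bp (score 51.3). No peak lay within the gene in MEFs, brain, liver or shSuz12. MEF peaks were at -8025 to -7324, 3650 to 4330 and 4719 to 5771 bp (scores 33.9, 39.7 and 67.8), and at 7526 to 8564, 9551 to 10420 and 10471 to 11979 bp (scores 146, 59.97 and 128). Brain peaks were at -6578 to -5547, 2639 to 4850 and 9559 to 10719 bp (scores 65.8, 124 and 69.7), and shSuz12 peaks at -6490 to -6081 and -2049 to -1246 bp (scores 45.2 and 66.8), and at 2902 to 3493, 4036 to 4562 and 10777 to 11302 bp (scores 35.4, 38.5 and 38.5). All libraries but liver had a peak between 2639 and 4850 bp, just past the gene.

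Cebpb (ENSMUSG00000056501, chr2:167514415-167515918, plus strand), the related factor of the acute phase and of liver regeneration, is also without introns. The 5' end of Tmem189, on the other strand, overlaps it, and Tmem189 runs on through the upstream flank. Another annotated RNA, A530013C23Rik, spans most of the downstream flank. Each liver peak lies in either of them and none in Cebpb itself, so these peaks cannot be assigned to Cebpb alone. Covered bp were 7394 in liver, 5838 in brain, 5134 in MEFs, 4817 in ESCs, 3650 in shGFP and 2471 in shSuz12, so that liver was at most 1.53 times any of the other 3 cell types. Liver peaks were at -7780 to -6646 and -3327 to -1651 bp (scores 147 and 365), and at 5569 to 9015 and 9536 to 10670 bp (scores 1024 and 237). The strongest of them began 5569 bp past the TSS, over a site that the other lists share.

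Just past the short Cebpb gene the other 5 libraries had a peak where liver had none. Upstream, all 6 had a peak between -3327 and -311 bp. The liver peak there ended at -1651 bp and did not overlap that of shSuz12, which began at -1367 bp. In ESCs the peaks were at -1794 to -350, 1419 to 2927, 3157 to 3852 and 6269 to 7435 bp (scores 811, 884, 103 and 569). MEF peaks were at -2498 to -1718, -1053 to -311 and 1252 to 2703 bp (scores 102, 42.3 and 306), and at 6494 to 7943 and 8894 to 9601 bp (scores 236 and 54.5). Brain peaks were at -2613 to -475, 1940 to 3418, 6190 to 7515 and 9507 to 10400 bp (scores 141, 61.7, 60.1 and 40.5). In shGFP they were at -1779 to -587, 1408 to 2944 and 6265 to 7184 bp (scores 167, 273 and 158), and in shSuz12 at -1367 to -666, 1586 to 2337, 6173 to 6754 and 6852 to 7286 bp (scores 73.1, 109, 35.9 and 53.1). Peaks just upstream, just past the gene and further downstream thus recur through these 5 lists, and the liver peak that starts at 5569 bp overlaps the downstream one in all 5.

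Nr1h4 (ENSMUSG00000047638, chr10:88916979-88996330, minus strand) encodes FXR, the bile acid receptor, and is the longest of the 8 genes. Liver peaks covered 53185 bp, or 53.5%, about 5 times the cover in each of the other cell types. ESC peaks covered 10947 bp, MEF peaks 10535 bp, brain peaks 10382 bp, shGFP peaks 10859 bp and shSuz12 peaks 5116 bp. Its 31 liver peaks are the most of any of the 8 genes, and 15 of its merged sites were marked in liver alone of the 4 cell types. The annotation gives an outer start and an inner start at 26936 bp.

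At the outer TSS of Nr1h4, ESCs had a peak at -204 to 799 bp (score 281), and MEFs had 1 at -637 to 474 bp (score 113), both across the TSS. Brain, at 119 to 1320 bp (score 74.5), and shSuz12, at 162 to 856 bp (score 73.5), had a peak just past it. In liver the nearest peaks were at -9031 to -8114 bp (score 160.1), and at 6287 to 7516 bp (score 121), which left 14400 bp free. The flank also had a peak in ESCs at -8881 to -8286 bp (score 90.8), and in shGFP at -8815 to -7830 bp (score 81.1). The inner start repeated the contrast. ESCs had a peak across it at 26665 to 27458 bp (score 374), shGFP had 1 at 26533 to 27519 bp (score 120.4), and shSuz12 had 1 just past it at 26988 to 27422 bp (score 43.6). Liver had none within 7216 bp around it.

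Between both starts of Nr1h4, liver showed peaks at 7951 to 8720, 9197 to 10581 and 11224 to 12078 bp (scores 103, 300.5 and 132), at 12123 to 13821, 16569 to 17473 and 20961 to 22521 bp (scores 266, 152 and 499), and at 22961 to 24633 and 24793 to 25576 bp (scores 408 and 181). MEFs had a series at 1904 to 2880, 5839 to 6893 and 8018 to 8752 bp (scores 127, 238 and 38.98), and at 12189 to 12990 and 16209 to 17279 bp (scores 72.3 and 49.8). ESCs showed peaks at 14051 to 14891 and 23548 to 24567 bp (scores 124 and 157), and shGFP had 1 at 14051 to 14885 bp (score 124). Brain and shSuz12 had none there beyond the TSS.

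Beyond the inner start of Nr1h4, liver had no peak for 5856 bp, and a long series followed. Its peaks were at 32793 to 33529, 34730 to 35962, 36192 to 41741 and 42488 to 43149 bp (scores 80.8, 299, 1384 and 84.5), at 43468 to 44322, 44417 to 45805 and 46134 to 47957 bp (scores 132, 329 and 185), and at 48791 to 52801, 53100 to 55006 and 55256 to 58166 bp (scores 874, 264 and 731). The strongest lay in an intron near 39 kb. Then came peaks at 58578 to 60311, 60340 to 61042, 61085 to 61838 and 62924 to 63673 bp (scores 439, 127, 127 and 128), at 64375 to 67019, 67521 to 69935 and 70735 to 71584 bp (scores 753, 344 and 80.5), and at 71792 to 74228, 75343 to 77875, 78345 to 81479 and 82919 to 85288 bp (scores 760.3, 478, 1129 and 333). The next to last of these, with a score of 1129, runs over the end of the gene.

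A site at about 50 kb of Nr1h4, at a coding exon, was marked in every library, and it is the strongest of the gene in ESCs, shGFP and brain. ESC peaks in this part were at 35076 to 35825, 49172 to 51756 and 53963 to 54557 bp (scores 91.9, 919 and 86.3), and at 78349 to 79058, 80102 to 80920 and 82135 to 83367 bp (scores 86.2, 129 and 357). In shGFP they were at 37260 to 38560, 40136 to 40712 and 49157 to 51889 bp (scores 103, 61.9 and 523), and at 70283 to 71325, 78345 to 79096, 79898 to 80909 and 82738 to 83370 bp (scores 188, 91.02, 97.6 and 98.1). In shSuz12 peaks were at 34976 to 35573, 37450 to 38038, 46390 to 47130 and 49376 to 49783 bp (scores 35.2, 35.5, 52.98 and 45.3), and at 50860 to 51662, 54112 to 54462 and 80511 to 81006 bp (scores 58.2, 45.3 and 49.03), and the site was split between the last of the former and the first of the latter. MEF peaks were at 27568 to 28530, 46482 to 47052, 49485 to 50074 and 50484 to 51180 bp (scores 72.7, 33.2, 31.5 and 34.3), and at 69100 to 69658, 74180 to 74659 and 87200 to 88122 bp (scores 43.1, 33.3 and 42.8). Brain peaks were at 30795 to 31741, 34894 to 35752, 48960 to 50615 and 50745 to 51812 bp (scores 56.4, 44.3, 101 and 61.3), and at 65051 to 65877, 70646 to 71493, 71774 to 72762, 79820 to 80748 and 83429 to 84485 bp (scores 35.8, 36.5, 51.4, 31.7 and 47.1).

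Nr1i2 (ENSMUSG00000022809, chr16:38248409-38294910, minus strand) encodes PXR, a receptor for drugs and other foreign compounds. Liver peaks covered 31638 bp, or 47.6%, against 13825 bp in MEFs, 11262 bp in ESCs, 7696 bp in shGFP, 6440 bp in shSuz12 and 6359 bp in brain. Its flanks reach into 4932425I24Rik and Gm15649 upstream and Gsk3b downstream, and many of its peaks in the flanks lie in them. Upstream, liver showed peaks at -10446 to -9864, -7749 to -7074 and -4816 to -2553 bp (scores 84.6, 96.5 and 386), ESCs at -10448 to -9434, -8210 to -7022 and -4277 to -3690 bp (scores 278, 249.7 and 83.04), and brain at -8216 to -7123 and -4498 to -3258 bp (scores 52.05 and 60.2). The shGFP peaks there were at -11777 to -9361 and -8014 to -7453 bp (scores 351 and 56.8). These upstream sites were therefore marked outside liver too.

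MEFs had the same upstream sites and in addition the only peak over the TSS of Nr1i2, among those at -10505 to -9482, -7932 to -7060, -4264 to -3202 and -897 to 80 bp (scores 109.7, 73.5, 89.6 and 53.8). In shSuz12 a peak ended at -365 bp, the last of those at -10448 to -9881, -7656 to -7266 and -896 to -365 bp (scores 63.1, 55.1 and 38.2). Liver had no peak from 2552 bp before the TSS to 8853 bp after it. Within the gene liver peaks were at 8854 to 10080, 10519 to 11437, 15940 to 17590 and 20592 to 21324 bp (scores 277, 129, 159.7 and 100.4), at 21784 to 24127, 24176 to 25028 and 27967 to 29138 bp (scores 496, 80.1 and 280.0), and at 29265 to 30362, 31768 to 33031, 33177 to 34817 and 37804 to 39637 bp (scores 174, 207, 257 and 485). Those at the 3' end followed, at 39854 to 42990, 43012 to 44516 and 45089 to 47896 bp (scores 819.9, 244 and 786), over the last coding exons. The peaks with scores 819.9 and 786 were the strongest liver peaks of Nr1i2.

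The end of Nr1i2 was marked elsewhere as well. ESC peaks in the gene were at 5454 to 5919, 11619 to 12310, 16912 to 17503 and 20655 to 21765 bp (scores 90.8, 85.2, 102 and 249), and at 40053 to 41333, 41412 to 42117 and 45407 to 46646 bp (scores 513, 120.1 and 349). Those of shGFP were at 5401 to 5958, 16906 to 17488 and 20794 to 21454 bp (scores 57.2, 129 and 60.4), and at 39853 to 41189 and 45201 to 46660 bp (scores 239 and 215). Those of shSuz12 were at 2818 to 3378, 22612 to 23190 and 32414 to 33013 bp (scores 63.6, 35.99 and 43.2), and at 40320 to 41182, 45294 to 45662 and 45858 to 46633 bp (scores 72.3, 45.3 and 51.3). MEFs showed peaks at 5410 to 5896, 9702 to 10533, 10753 to 11458 and 21824 to 22687 bp (scores 32.6, 34.99, 37.5 and 60.6), and at 36696 to 37263 and 45098 to 46239 bp (scores 42.1 and 89.9), and brain had 1 at 8491 to 10315 bp (score 58.95). All libraries but brain thus had a peak at the last exons.

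Past the end of Nr1i2, towards and into Gsk3b, the lists shared several sites. Liver peaks were at 48708 to 51210, 51452 to 52835, 53844 to 55716 and 55887 to 56890 bp (scores 424, 324, 307 and 152), and ESC peaks at 50607 to 51264, 51492 to 52755 and 54222 to 55129 bp (scores 154, 307 and 153). MEF peaks were at 47164 to 48124, 48506 to 49323 and 49532 to 51423 bp (scores 47.3, 52.1 and 141), and at 51856 to 52669, 53812 to 54491 and 54523 to 55150 bp (scores 40.2, 31.9 and 32.3). Brain showed peaks at 51692 to 52910 and 54142 to 55121 bp (scores 97.2 and 43.3), shGFP at 50573 to 51224 and 51513 to 52755 bp (scores 74.4 and 176), and shSuz12 at 51643 to 52136, 53866 to 54449 and 54803 to 55373 bp (scores 49.2, 62.05 and 82.7). A site near 52 kb was marked in all 6.

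Nr1i3 (ENSMUSG00000005677, chr1:173144101-173150832, plus strand) encodes CAR, which is known to induce drug-metabolising enzymes, and is short. Tomm40l, on the other strand, overlaps its 3' part, and the downstream flank holds Apoa2, an apolipoprotein gene, and the end of Fcer1g. Liver peaks covered 11538 bp, or 43.2%, ESC peaks 7695 bp, shGFP peaks 2555 bp, shSuz12 peaks 1244 bp, brain peaks 985 bp and MEF peaks 672 bp. Liver was therefore 17.2 times MEFs and 11.7 times brain but 1.499 times ESCs.

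Upstream of Nr1i3, liver showed peaks at -9283 to -8530, -8521 to -6946, -4654 to -3019 and -2085 to -1334 bp (scores 137, 271, 269 and 117), and ESCs had 1 at -9687 to -9200 bp (score 95.8). A single liver peak took up most of the gene, at 2106 to 6864 bp (score 1472). In ESCs the same stretch showed peaks at 2509 to 5743 and 5964 to 7240 bp (scores 680.3 and 264). In shGFP it showed peaks at 3181 to 4295 and 4507 to 5339 bp (scores 178 and 76.2), in shSuz12 at 2489 to 3111 and 3579 to 4151 bp (scores 59.6 and 36.3), and in brain 1 at 2518 to 3502 bp (score 55.05). MEFs had no peak within the gene and 1 just past it, at 6743 to 7414 bp (score 36.4). In the downstream flank liver had 1 peak at 14671 to 17218 bp (score 463), and ESCs showed peaks at 10863 to 11541, 12149 to 12723, 14678 to 15343 and 15957 to 16778 bp (scores 127, 81.1, 85.8 and 119), the first 2 of them at Apoa2, where liver had none. In shGFP 1 was at 10906 to 11512 bp (score 52.7), and in shSuz12 1 at 16684 to 17044 bp (score 45.3).

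**Figure D3:**
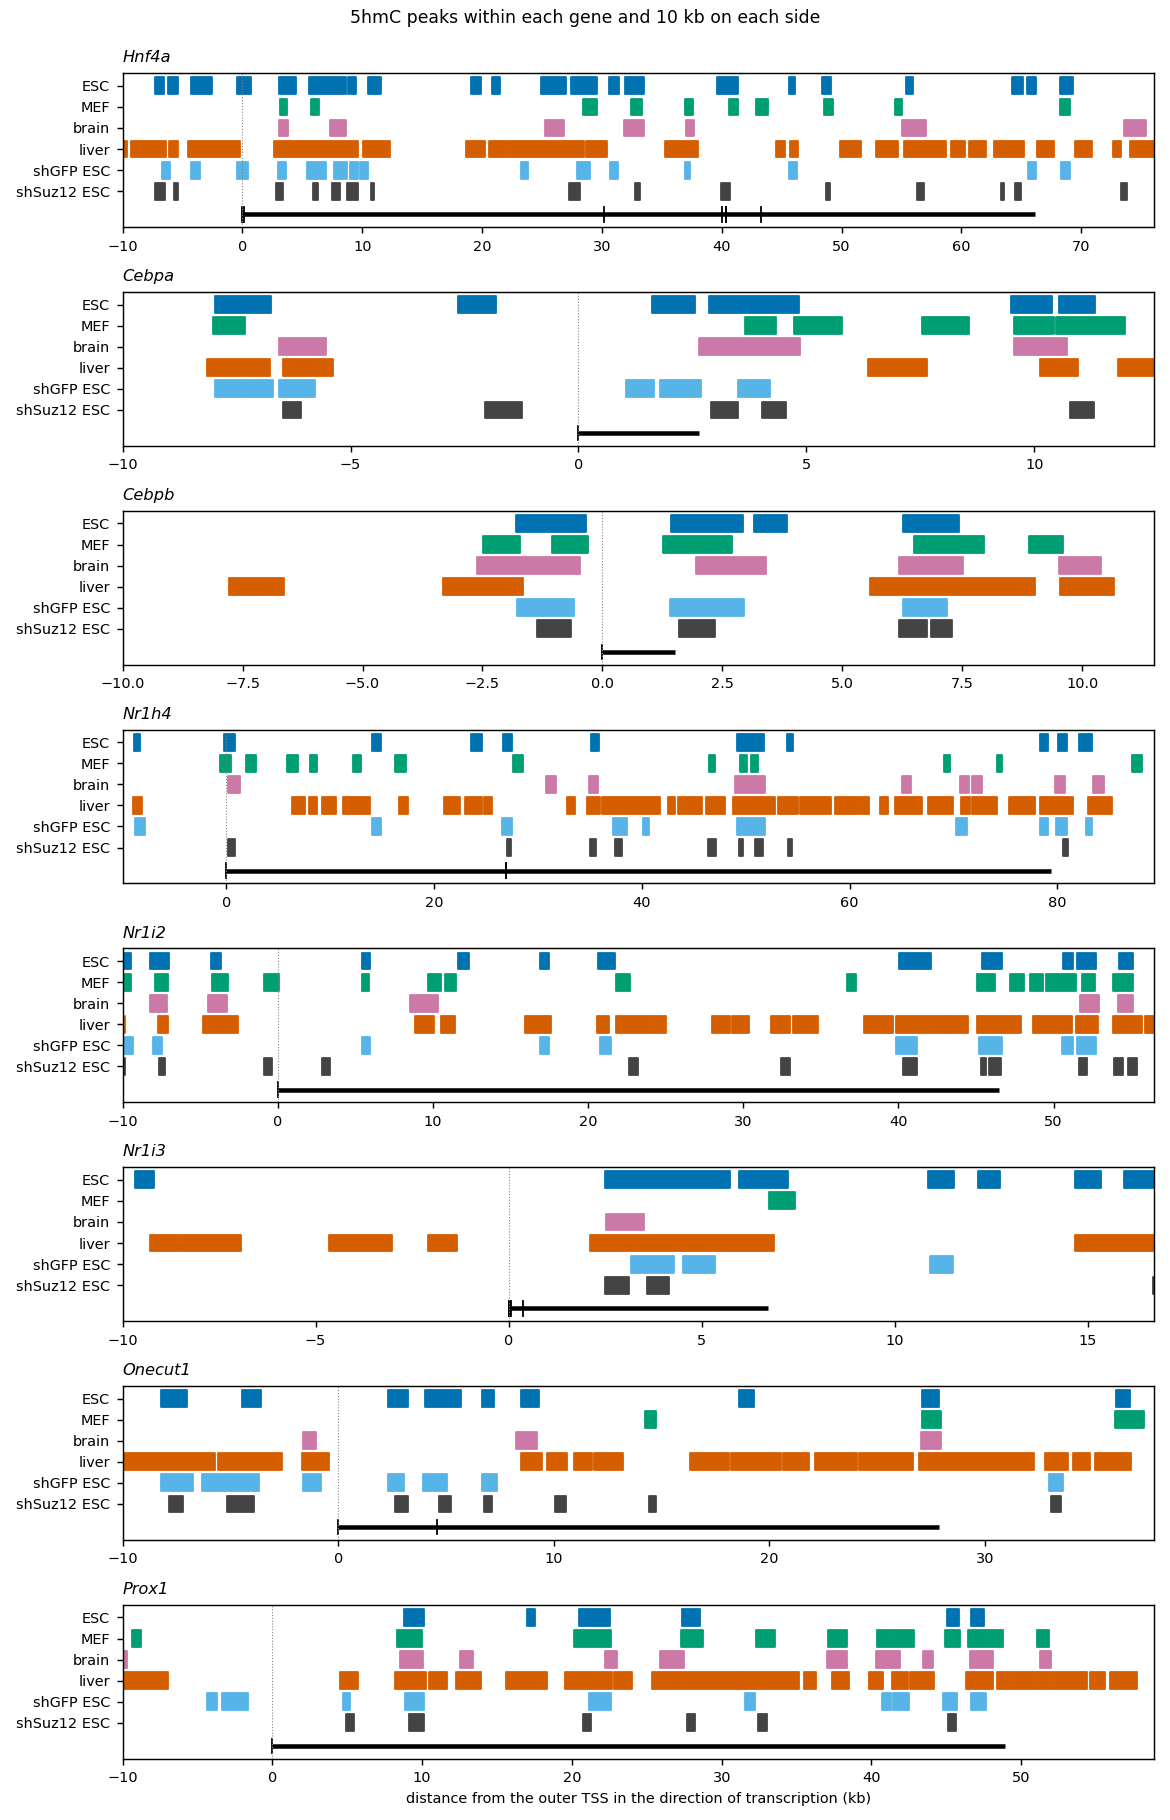
Each panel is a gene, with the distance from its outer TSS along the direction of transcription on the x axis (kb) and a row of peaks for each library, cut at 10 kb beyond the gene. The black line is the gene and its ticks are annotated transcript starts. Liver peaks take up 65.1% of the row in Onecut1, 61.0% in Prox1, 58.8% in Hnf4a and 53.5% in Nr1h4. None covers an outer TSS, and over all genes 5.38% have theirs covered in liver.

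Transcript starts were compared across the libraries, since 5hmC at the start and along the gene are separate readouts. A peak within 1 kb of the outer TSS was present in 3 of the 8 genes in ESCs (31.9% of all genes had 1), 3 in MEFs (30.1%), 2 in brain (20.0%), 2 in liver (29.4%), 3 in shGFP (27.1%) and 3 in shSuz12 (21.4%). These counts are of the size of the share over all genes. In liver the 2 genes were Hnf4a, with 812 bp covered, and Onecut1, with 571 bp, both from an upstream peak that stops short of the TSS. Cebpb had such a peak in every library but liver, of which the window held 651 bp (ESCs), 690 bp (MEFs), 526 bp (brain), 414 bp (shGFP) and 335 bp (shSuz12). Nr1h4 had 1 in ESCs (1004 bp), MEFs (1112 bp), brain (882 bp) and shSuz12 (695 bp), but not in liver or shGFP. Nr1i2 had 1 in MEFs (978 bp) and shSuz12 (532 bp). Prox1, Cebpa and Nr1i3 had none in any library.

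The stretch without a liver peak around the outer TSS was 2813 bp in Hnf4a, 3439 bp in Nr1i3, 7219 bp in Cebpb, 8891 bp in Onecut1, 11406 bp in Nr1i2, 11481 bp in Prox1, 11740 bp in Cebpa and 14400 bp in Nr1h4. Over all genes the liver median was 30815 bp, as many genes have few peaks. A closer background is the genes with a high liver share, and 40% was taken as the limit after the values of the 8 genes were known. It gave 2792 genes, among them 6 of the 8 (not Cebpa or Cebpb). Of these genes, 64.8% (95% interval 63.0 to 66.6%, counting error only) had a peak within 1 kb of the TSS, and 2 of the 6 did. Their free stretch was shorter than that of Nr1h4 in 95.1%, of Prox1 in 93.2%, of Nr1i2 in 92.9%, of Onecut1 in 89.3%, of Nr1i3 in 57.7% and of Hnf4a in 49.3%.

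**Figure D4:**
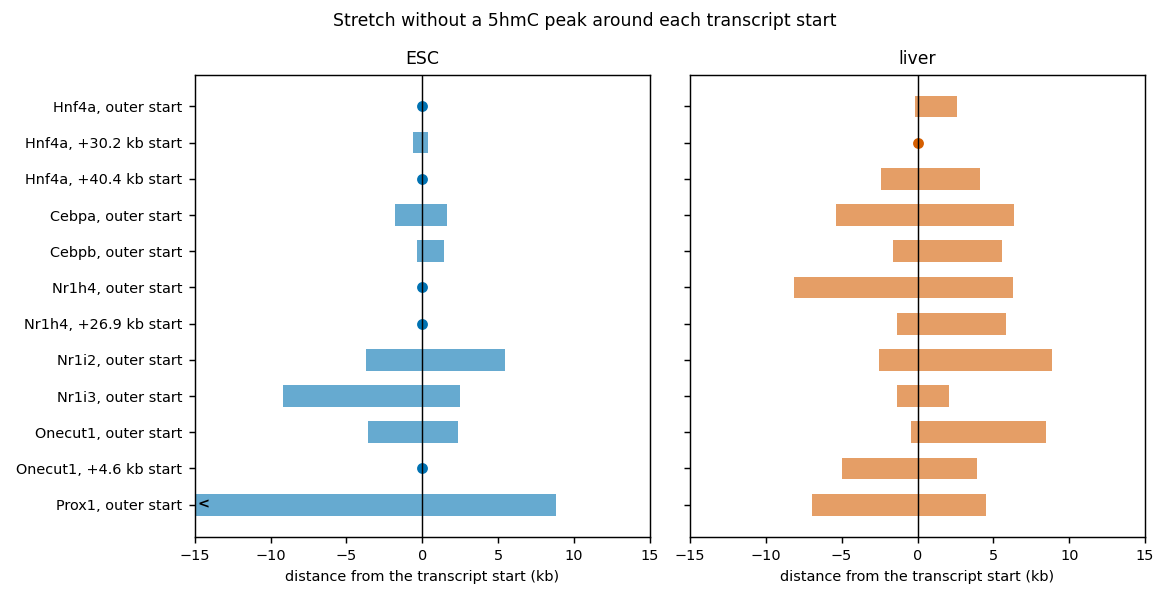
Bars span the stretch without a 5hmC peak around each transcript start (x axis, kb from that start, negative upstream) in ESCs (left) and liver (right), and a dot marks a start that lies under a peak. Of the 8 outer starts, ESC peaks cover 2 and liver peaks 0, where 11.8% and 5.38% of all genes have theirs covered. The inner starts were chosen after the peaks had been seen and have no background. The bar marked < runs 45.9 kb upstream.

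The contrast between liver and the other cell types was then counted as at least 2 times as many bp covered, with at least 500 bp in liver. Against ESCs, 5 of the 8 genes passed, namely Hnf4a (2.02 times), Nr1i2 (2.81), Onecut1 (3.83), Nr1h4 (4.86) and Prox1 (6.15), where 18.5% of all genes did. Against MEFs it was 6 genes (33.0% of all genes), with Nr1i3 added, and ratios ran from 2.29 in Nr1i2 to 17.2 in Nr1i3. Against brain the same 6 passed (23.3% of all genes), from 3.79 in Prox1 to 12.5 in Onecut1. The 5 genes that passed against ESCs passed against each of the 3 cell types, which 8.30% of all genes did. The ratio of Hnf4a to ESCs lies at the limit. Cebpa was at 0.806, 0.918 and 1.22 times ESCs, MEFs and brain, and Cebpb at 1.53, 1.44 and 1.27 times. With a score of at least 80 asked for in each list, the same 5 passed and 16.1% of all genes did.

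Peaks were also compared place by place. Of the 129 liver peaks, 50 overlapped no peak of ESCs, MEFs or brain (38.8%, against 26.0% of the whole liver list). Counted instead as merged sites marked in liver alone of the 4 cell types, there were 15 in Nr1h4, 9 in Onecut1, 8 each in Hnf4a and Nr1i2, 6 in Prox1, 3 in Nr1i3, 1 in Cebpb and none in Cebpa. Sites were merged from peaks of these regions only. The Hnf4a site at -11807 to -9627 bp is counted among them, though its liver peak overlaps an ESC peak beyond the region. Read from the other side, most peaks of the other cell types fell under a liver peak, 58 of 81 in ESCs (71.6%, against 38.4% of the ESC list), 49 of 67 in MEFs (73.1 against 29.7%) and 39 of 44 in brain (88.6 against 39.3%). The liver list covered 53.0% of the bp of these regions, and the part of this cover in the overlap was not tested. Merged over all lists there were 148 sites, of which 116 were marked in liver, 64 in ESCs, 54 in MEFs, 39 in brain, 51 in shGFP and 50 in shSuz12, 17 in all 4 cell types and 10 in all 6 lists.

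The hairpin libraries address whether Suz12 is needed for 5hmC in ESCs. Over the whole genome shSuz12 peaks covered 3.15% and shGFP peaks 4.56%, so a lower value in shSuz12 is the rule in these lists, which also differ in their lowest score. All 8 genes had fewer bp covered in shSuz12 than in shGFP, from 0.389 times in Prox1 and 0.471 times in Nr1h4 to 0.712 times in Hnf4a and 0.837 times in Nr1i2. The share of all genes with fewer bp in shSuz12 was not counted, so this count has no background. At least 2 times as many bp in shGFP were found in Nr1h4, Nr1i3 and Prox1, 3 of the 8, where 20.0% of all genes passed. None of the 8 passed in the other direction, which 5.41% of all genes did. Set against the share of the genome covered in each list, none of the 8 reached 2 times in shGFP over shSuz12. With a score of at least 80 in both lists all 8 passed, and so did 57.2% of all genes.

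In Prox1 the difference included the 3 upstream peaks of shGFP, for which shSuz12 had no counterpart, and neither had untransfected ESCs. In Cebpa it included the peaks within the gene, which ESCs shared. In Hnf4a the peak over the outer TSS was in ESCs and shGFP but not in shSuz12, whereas the start at 40380 bp was covered in ESCs and shSuz12 but not in shGFP. At the outer start of Nr1h4, ESCs and shSuz12 had a peak and shGFP did not. The starts thus differed in both directions. Of the 65 shGFP peaks, 31 overlapped a shSuz12 peak (47.7%, against 50.5% of the list), and 50 overlapped an ESC peak (76.9 against 76.3%). Between untransfected ESCs and shGFP, both without knockdown of Suz12, covered bp already differed from 0.332 times in Nr1i3 and 0.475 times in Hnf4a to 1.41 times in Prox1 (shGFP over ESCs), a wider range than that between the hairpins.

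**Figure D5:**
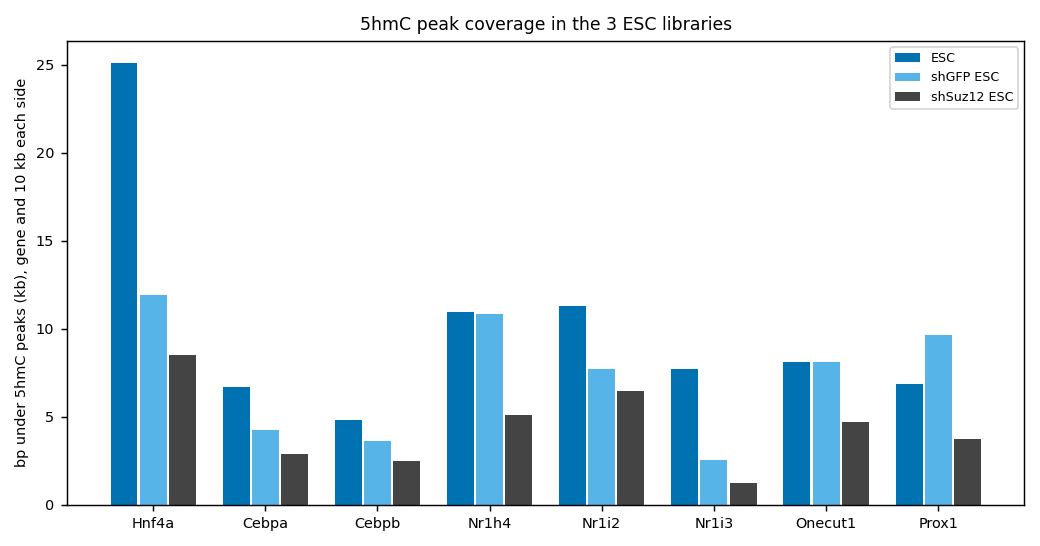
Bars give the bp under 5hmC peaks (y axis, kb) within each of the 8 genes and 10 kb on each side in untransfected ESCs, shGFP ESCs and shSuz12 ESCs, 1 library each. The shSuz12 bar is below the shGFP bar in all 8 genes, a count without a background over all genes. Over the whole genome, shSuz12 peaks cover 3.15% and shGFP peaks 4.56%. In Hnf4a, Nr1i3, Nr1i2 and Cebpa the ESC and shGFP bars differ by more than the shGFP and shSuz12 bars do, and in the other genes by less.

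The sequence of the promoters separates the genes into both classes. By the CpG content from 700 bp before to 200 bp after the TSS, Cebpa, Cebpb, Onecut1 and Prox1 have promoters of high CpG content, as 34.2% of all genes do, and Hnf4a, Nr1h4, Nr1i2 and Nr1i3 of low content, as 40.9% do. In the 300 bases around the TSS (250 before, 50 after) there are 50 CpG in Cebpb, 38 in Onecut1, 29 in Cebpa, 18 in Prox1, 7 in Nr1h4, 3 in Hnf4a, 3 in Nr1i3 and 2 in Nr1i2, with a median of 11 over all genes. In liver the genes of high content were covered to 23.7% (Cebpa), 34.4% (Cebpb), 61.0% (Prox1) and 65.1% (Onecut1). Those of low content ran from 43.2% in Nr1i3 to 58.8% in Hnf4a. A relation between this class and the liver share was not tested. The CpG density of the liver peaks was 1.296 per 100 bp at the median, close to 1.32 over the whole liver list. In brain it was 1.92 against 1.43 and in shSuz12 2.23 against 1.81.

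Letters bound by these factors were looked for on both strands of the 300 bases at the centre of each liver peak, namely TTGCNNAA (C/EBP), CAAAGTCCA (HNF4), ATTGAT (Onecut) and AGGTCA (a half-site of nuclear receptors). They occurred in 15 of the 129 peaks (11.6%, against 11.8% of all liver peaks), 3 (2.33 against 0.557%), 19 (14.7 against 9.68%) and 26 (20.2 against 21.9%). The 3 with CAAAGTCCA were peaks of Nr1i2 at -4816 to -2553 bp and at 37804 to 39637 bp and of Prox1 at 51164 to 52218 bp. In the 300 bases around the outer TSS, ATTGAT occurred once in Hnf4a (7.24% of all promoters hold it), and none of the other motifs occurred in any of the 8 (TTGCNNAA in 10.3% of all promoters, CAAAGTCCA in 0.456% and AGGTCA in 14.4%). These matches are of letters, and binding was not measured.

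Other transcription factors of the liver, a list of 30 of which 29 were found by symbol in the annotation, had a median liver share of 41.1%, against 18.1% in ESCs, 10.9% in MEFs, 9.29% in brain, 16.6% in shGFP and 8.75% in shSuz12. At least 2 times as many bp in liver as in each of ESCs, MEFs and brain were covered in 10 of the 29, including Gata4, Gata6, Mlxipl, Nr1h3, Nr2f2, Nr5a2, Onecut2, Ppara and Tef. Mlxipl, the carbohydrate response factor ChREBP, had 30416 bp covered in liver, and ESCs 13156 bp, MEFs 574 bp and brain 987 bp. Onecut2, the paralog of Onecut1, had 36702, 3998, 1459 and 2013 bp, and Nr5a2, a receptor that regulates bile acid synthesis, 74670, 26994, 23626 and 12328 bp. Outside both lists, the genes whose shares in the 6 libraries were closest to the medians of the 8 were Trim41 (Euclidean distance 2.34 percentage points), Deptor (5.31) and Abat (6.20), with liver shares of 50.8, 52.8 and 50.1%.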

How the data were processed

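The data are 6 GLIB-Seq libraries of 5hmC. Per the study's methods and the submitters' processing notes, the authors used CASAVA 1.8, mapped reads to mm9 with Bowtie 0.12.7, kept those with a unique hit, removed redundancy and ran MACS 1.4.1 on each library. The deposited lists hold the position of each peak and a score, the authors' MACS score, taken here as the -log10 of the p-value multiplied by 10. Peaks of repeats that cannot be mapped uniquely are lost in this way, and MACS thresholds and controls are not given in the sources used here. The lists give no counts, so the depth and the precision it gives are unknown, and intervals (exact, Clopper-Pearson, 95%) cover counting error only. The RNA-Seq libraries of the hairpin cells were not analysed here, and mitochondrial peaks, between 1 and 3 per list, were left out.

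Genes, exons and starts were taken from GENCODE M1 on NCBIM37, the assembly of mm9, with 22367 protein-coding genes, and sequences from its genome. A peak belonged to a gene where it overlapped the gene or 10 kb on each side by at least 1 bp, and the TSS was the outer 5' end. Covered bp, shares of the region, percentiles over all genes, merged sites and 2-fold contrasts (at least 500 bp in the higher library) were computed in Python 3.11.15 (pandas 2.3.3, numpy 2.4.6, scipy 1.17.1, figures in matplotlib 3.10.9). The coverage step was tested on simulated data, where 2000 of 2000 simulated regions were recovered. With 1 library per group no test was run, and most counts stand beside the same count over all genes.

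The named genes are the 8 members, the other liver factors that met the 2-fold rule against 3 cell types (another is not reported here), and the 3 genes with the most similar shares. The members and lists were chosen with earlier results of these data known, and the inner starts and the 40% limit after the peaks had been seen. Alternatives were a score of at least 80 in every list, the top 50% of each list by score, windows of 500 bp or 2 kb at the TSS, any annotated start, peak midpoints, the gene without flanks, peaks that share at least 50% of each and shares relative to the genome.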

Additional observations from a re-analysis of the deposited data

How the results depend on the processing

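Of 83 alternative values, 44 stayed within 1.5 times the reported one and 39 moved further. The count of 5 genes with at least 2 times as many bp in liver as in each other cell type stayed within 1.5 times under all its alternatives. Asking for a score of at least 80 leaves the ESC and liver lists as they are and shortens the others, and the unknown depth limits any reading of absent peaks. No paired analysis was possible because there were no replicates to pair.

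The number of peaks was 40 in ESCs, 34 in MEFs, 27 in brain, 35 in shGFP and 26 in shSuz12 with the top 50% by score. It was 50, 42, 27, 85, 41 and 39 (ESCs, MEFs, brain, liver, shGFP, shSuz12) in the genes alone, and 21 in MEFs, 10 in brain, 39 in shGFP and 7 in shSuz12 at a score of at least 80. Covered bp were 52010 in ESCs, 38194 in MEFs, 38090 in shGFP and 16545 in shSuz12 with the top 50% by score, 51459, 36206, 31015, 35082 and 22338 (ESCs, MEFs, brain, shGFP, shSuz12) in the genes alone, and 25558 in MEFs, 15483 in brain and 5649 in shSuz12 at a score of at least 80.

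Genes with a peak near the TSS numbered 1 in MEFs, 1 in brain and 0 in shSuz12 at a score of at least 80, and 1 in MEFs with the top 50% by score. They numbered 4 in liver and 5 in shGFP within 2 kb, 1 in shGFP within 500 bp, and 5 in shSuz12 at any annotated start. Liver peaks apart from the other cell types were 95 when peaks had to share at least 50% of each. The share of the whole liver list under this rule was not counted, so this number has no background. Genes with at least 2 times as many bp in shGFP as in shSuz12 were 8 at a score of at least 80, 1 in the genes alone and 0 relative to the share of the genome covered. A higher score limit or a shorter region leaves fewer peaks and bp by construction. For the other settings the cause was not tested.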
